A study of Mus musculus with 9 samples.

Results

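The genes described here are Trem2, its signalling partner Tyrobp, and 8 genes of phagocytic and lysosome-rich macrophages: Apoe, Lgals3, Gpnmb, the cathepsins Ctsb, Ctsd and Ctss, Lipa and Cd68. They were found by name, by matching the Ensembl gene identifiers of the count table to GENCODE symbols on the mouse build GRCm38. No measured value enters that rule, but the names were put together with earlier results of these data known. All 10 had a row among the 38293 genes of the table, and all 10 passed the filter on low counts that left 14124 genes for testing.

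TREM2 is a receptor on the surface of macrophages and microglia that binds lipids, lipoproteins and debris of dead cells. It has no signalling tail of its own and works through TYROBP (also called DAP12), an adaptor whose ITAM motif recruits the kinase SYK. Macrophages that clear lipid-rich debris are known for high levels of this receptor together with apolipoprotein E, galectin-3, GPNMB, CD68 and the enzymes that break down cargo in lysosomes, the acidic organelles where engulfed material is digested.

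The tissue was left ventricle, labelled as its infarcted region, of C57BL/6 males 8 weeks old. In ischemia-reperfusion (I/R) the left anterior descending coronary artery was tied for 1 hour and then released. Sham-operated animals were mice 1, 2 and 3, the 1-day I/R group was mice 4, 5 and 6, and the 14-day I/R group was another 3 mice, with no genetic alteration named in the labels and no time of collection given for sham. The 14-day count columns carry the same header, which names only 1 mouse of that group. The letters A, B and C therefore stand for those libraries without saying which mouse each is. They were taken as the 3 mice that the labels give for the group.

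Total counts per library ran from 20215781 to 36816818, of which mitochondrially encoded genes took 52.0% to 71.8%. The samples are bulk tissue of many cell types, so fewer cells of a type and less RNA per cell cannot be told apart. Cardiomyocyte markers, summed over 7 genes, lay between 20115 and 22367 CPM (counts scaled to a common library size) in sham, between 7581 and 14048 at 1 day and between 14215 and 19433 at 14 days. Mouse 6 stood apart from the other 1-day mice, at 37.2 on the first principal component (64.4% of the variance) against 78.0 for mouse 4 and 78.7 for mouse 5, with the highest cardiomyocyte sum of its group and a neutrophil marker sum of 19.7 CPM against 63.9 and 69.1. Summed macrophage markers (14 genes, such as Adgre1, Csf1r, C1qa and Ptprc) lay between 173 and 194 CPM in sham, 291 and 341 at 1 day, and 262 and 507 at 14 days. In the 14-day group the macrophage sums were 262, 410 and 507 CPM in libraries A, B and C, the fibroblast sums 1703, 2607 and 3985 CPM, and the cardiomyocyte sums 19433, 15800 and 14215 CPM. Library A was the lowest and library C the highest of that group for all 10 genes, and the part of these differences in tissue makeup in the results was not tested.

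At 1 day after I/R 7 of the 10 genes were higher than in sham by edgeR's quasi-likelihood test at an adjusted p under 0.05, 1 was lower and 2 did not pass, beside 54.2% of all tested genes that passed (29.4% higher and 24.8% lower). At 14 days 8 were higher and 2 did not pass, beside 14.4% of all tested genes (8.75% higher and 5.64% lower). Without sham mouse 2 only 4 of the 10 were higher at 14 days, and the genes called over the whole table went from 1236 to 314 higher and from 797 to 164 lower. Those counts over all genes were 614 and 298 without sham mouse 1, and 619 and 406 without sham mouse 3. They were 515 and 207 without library B, and 498 and 277 without library C. Without library A they rose to 1823 and 1189, and without mouse 6 to 1752 and 1469. Between 14 days and 1 day 3 were higher, 2 lower and 5 did not pass, beside 51.9% of all tested genes (25.1% higher and 26.8% lower). Of the 10 genes 1 was higher between both times without mouse 5 or library C, and 4 were lower without library C. Among all genes 2853 were higher between both times without mouse 5. Without library C 3402 were higher and 3488 lower, against 3547 and 3788 with all libraries. The median log2 fold of the 10 genes was 1.59 at 1 day, 1.20 at 14 days and -0.01 between both times, against 0.04, 0.01 and 0.00 over all tested genes. Scaling by total count only raised the median of all genes by 0.48 at 1 day and by 0.09 at 14 days, and moved it by -0.39 between both times. Of the 10 genes it called 8 higher at 1 day, beside 48.6% of all tested genes called higher and 7.48% lower, and 8 higher at 14 days, beside 5.1% and 0.793%. Between both times it called 1 higher and 2 lower, beside 7.55% and 38.7%. In a test for any difference among the 3 groups, 8 of the 10 genes passed beside 63% of all tested genes, and the 2 that did not were Ctsb (edgeR adjusted p = 0.150) and Ctsd (edgeR adjusted p = 0.0778).

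**Figure D1:**
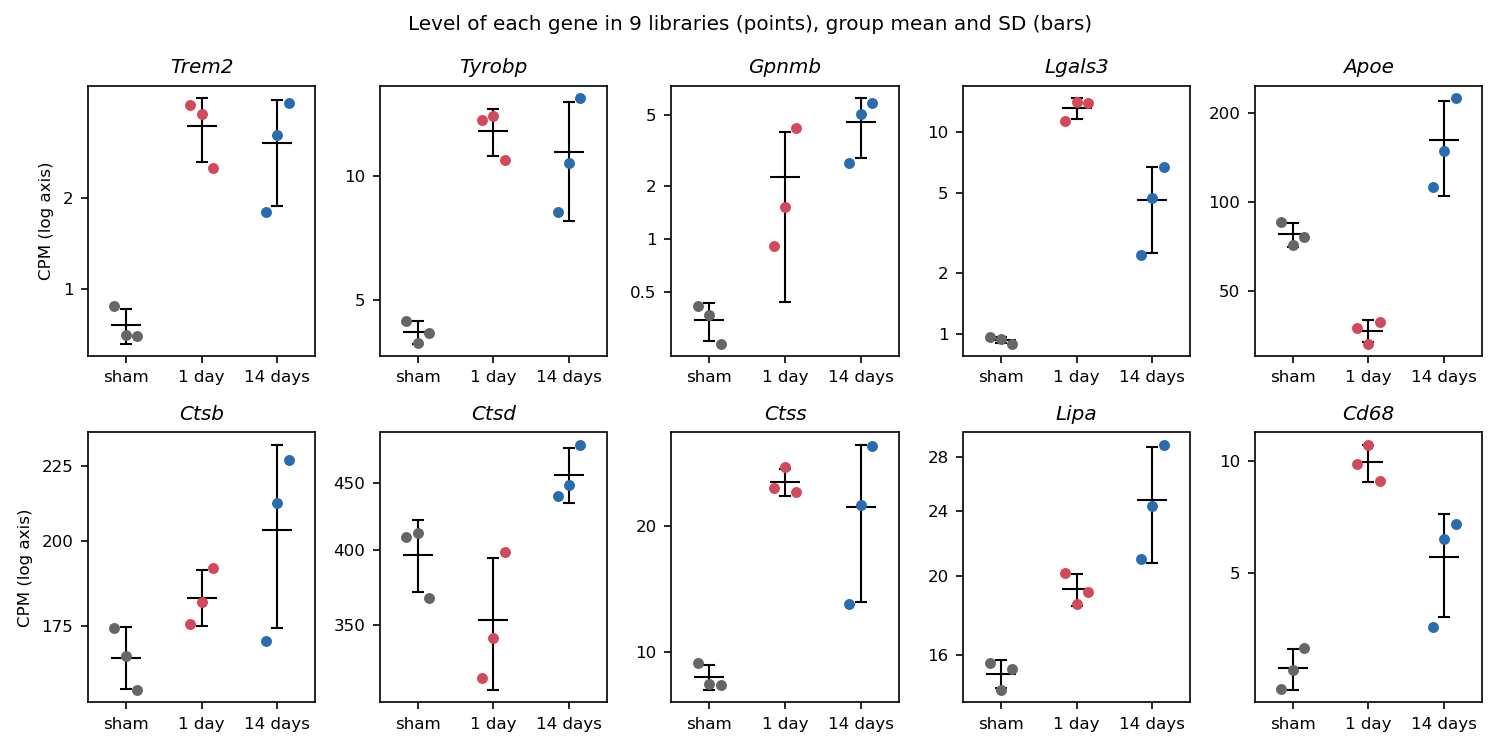
Level of each gene in the 9 libraries, in CPM on a log axis that does not start at 0. Points are single libraries (3 each of sham, 1 day and 14 days, drawn from left to right as mice 1 to 3, mice 4 to 6 and libraries A to C), and the bars are the group mean and SD. Trem2, Tyrobp, Ctss and Cd68 lay above sham at both times, Apoe lay below sham at 1 day and above it at 14 days, and Gpnmb at 1 day ranged from 0.905 CPM to 4.26 CPM.

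The receptor itself was scarce in sham heart and clearly higher after injury. Trem2 (ENSMUSG00000023992, chr17:48346401-48354147 on GRCm38, plus strand) had 0.879, 0.708 and 0.703 CPM in sham mice 1, 2 and 3, from 21, 21 and 11 counts. It had 4.03, 3.77 and 2.51 CPM in mice 4, 5 and 6, and 1.80, 3.22 and 4.09 CPM in libraries A, B and C. All 6 libraries after I/R lay above all 3 sham libraries, while the 1-day and 14-day libraries overlapped. The group means were 0.763 ± 0.1005, 3.44 ± 0.813 and 3.04 ± 1.16 CPM (SD, n = 3 each). Trem2 was 4.52-fold higher than sham at 1 day (log2 fold 2.18, SE 0.33, edgeR adjusted p = 3.23e-04) and 3.93-fold higher at 14 days (log2 fold 1.97, SE 0.33, edgeR adjusted p = 0.00508). Between both times the log2 fold was -0.20 (SE 0.27, edgeR adjusted p = 0.546), and without library A it was 0.066.

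Tyrobp, the adaptor through which Trem2 signals, followed the same course at a higher level. Tyrobp (ENSMUSG00000030579, chr7:30413760-30417585, plus strand) had 4.44, 3.91 and 4.15 CPM in sham, 13.7, 14.0 and 10.9 CPM at 1 day and 8.17, 10.8 and 15.5 CPM at 14 days. Sham overlapped neither time, and libraries A and B were the lowest after I/R, with B just below mouse 6. It was 3.10-fold higher at 1 day (log2 fold 1.63, SE 0.21, edgeR adjusted p = 1.75e-04) and 2.75-fold higher at 14 days (log2 fold 1.46, SE 0.21, edgeR adjusted p = 0.00360). The difference between both times, a log2 fold of -0.18 (SE 0.19), did not pass (edgeR adjusted p = 0.466), but without library C it did (-0.42, edgeR adjusted p = 0.0336), and without library A the log2 fold was 0.020. Per kilobase of the longest coding transcript, Tyrobp stood at 6.98, 21.6 and 19.2 CPM in sham, 1 day and 14 days, and Trem2 at 0.702, 3.16 and 2.79 CPM. Over the 9 libraries the 2 genes had a Pearson correlation of 0.99 in log2 CPM, and of 0.94 after removal of the group means, which is a description of libraries that share their groups.

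The 250 bases upstream of the Trem2 start are shown because Trem2 is the receptor of the pathway and its window shares a motif with Ctss and Lipa. Sequences are from RefSeq, build GRCm38.p6, written on the gene's strand, with capitals on the letters of a searched motif. Short motifs were searched on both strands of the window from 250 bases before to 50 after each start, and their share of 32851 promoters of that length was counted. The E-box, written CACGTG, was in 7.15% of them. The core of TFEB and TFE3 sites, written TCACGTG, contains that E-box and was in 3.77%. The M-box core, CATGTG, was in 14.2%, the PU.1 core, GAGGAAG, in 13.6%, and the motif of AP-1, TGAGTCA, in 5.20%. A promoter was found for 8 of the 10 genes, and GAGGAAG was found in Trem2, Ctss and Lipa. In Trem2 it lies on the opposite strand at -41 to -35, where -1 is the base before the start. No motif was found in the windows of Lgals3 and Apoe. A match describes letters only. The Trem2 stretch is chr17:48346151-48346400 on the plus strand.
Trem2: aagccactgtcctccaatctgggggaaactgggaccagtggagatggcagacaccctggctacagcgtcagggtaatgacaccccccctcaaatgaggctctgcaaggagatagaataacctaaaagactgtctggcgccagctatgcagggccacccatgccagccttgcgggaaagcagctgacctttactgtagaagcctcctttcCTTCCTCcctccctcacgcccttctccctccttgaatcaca

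Apoe, the lipid-carrying apolipoprotein that TREM2 binds, was the only gene of the 10 that fell at 1 day. Apoe (ENSMUSG00000002985, chr7:19696109-19699188, minus strand) had 85.5, 71.4 and 76.4 CPM in sham, 37.5, 33.2 and 39.3 CPM at 1 day and 112, 149 and 224 CPM at 14 days. The 3 groups did not overlap, with every 1-day library below every sham library and every 14-day library above. Apoe fell 2.12-fold at 1 day (log2 fold -1.09, SE 0.21, edgeR adjusted p = 0.00152) and was 2.08-fold higher than sham at 14 days (log2 fold 1.05, SE 0.21, edgeR adjusted p = 0.0105). It thus rose 4.41-fold from 1 day to 14 days (log2 fold 2.14, SE 0.22, edgeR adjusted p = 4.65e-05). The fall at 1 day did not pass with total count only (log2 fold -0.60, edgeR adjusted p = 0.0605), and the 14-day difference did not pass without sham mouse 2 (log2 fold 0.99, edgeR adjusted p = 0.0586). Of 6 fibroblast markers 1 was higher and 2 lower at 1 day, beside 29.4% and 24.8% of all tested genes. At 14 days 5 were higher, beside 8.75%. Among them Dcn was lower at 1 day (log2 fold -1.17, SE 0.25) and higher at 14 days (1.48, SE 0.26). The part of cells other than macrophages in the Apoe result was not tested.

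Lgals3, which codes for galectin-3, a sugar-binding protein secreted by activated macrophages, had the largest 1-day fold of the 10 genes. Lgals3 (ENSMUSG00000050335, chr14:47367751-47386160, plus strand) had 0.963, 0.944 and 0.895 CPM in sham, 11.3, 14.1 and 13.9 CPM at 1 day and 2.46, 4.69 and 6.66 CPM at 14 days. None of the 3 groups overlapped another, and the order was 1 day, 14 days, sham. It was 13.9-fold higher than sham at 1 day (log2 fold 3.79, SE 0.33, edgeR adjusted p = 2.91e-05) and 4.85-fold higher at 14 days (log2 fold 2.28, SE 0.35, edgeR adjusted p = 0.00457). From 1 day to 14 days it fell 2.86-fold (log2 fold -1.51, SE 0.26, edgeR adjusted p = 9.82e-04).

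Gpnmb, a transmembrane glycoprotein of late phagocytic macrophages, melanocytes and osteoclasts, was the lowest of the 10 genes per kilobase in all 3 groups and had the largest 14-day fold among them. Gpnmb (ENSMUSG00000029816, chr6:49036546-49070929, plus strand) had 0.419, 0.371 and 0.256 CPM in sham, from 10, 11 and 4 counts. It had 0.905, 1.51 and 4.26 CPM in mice 4, 5 and 6 and 2.67, 5.10 and 5.89 CPM in libraries A, B and C. Every library after I/R lay above sham, and mouse 6 alone lay within the 14-day range. At 14 days it was 12.5-fold higher than sham (log2 fold 3.64, SE 0.66, edgeR adjusted p = 0.00938), and its log2 fold ranked 28 among the 14124 tested genes. At 1 day the log2 fold was 2.53 (SE 0.71, edgeR adjusted p = 0.0134), which was 1.67 without mouse 6 (edgeR adjusted p = 0.0116) and did not pass with limma-voom (adjusted p = 0.0550) or with no filter on low counts (edgeR adjusted p = 0.0643). Without sham mouse 2 the 14-day difference did not pass either (log2 fold 3.67, edgeR adjusted p = 0.0520). The difference between both times (log2 fold 1.11, SE 0.50, edgeR adjusted p = 0.0863) passed without mouse 6 (log2 fold 1.97, edgeR adjusted p = 4.75e-04) and with limma-voom (1.45, adjusted p = 0.0167). Markers of the other cells known for Gpnmb were measured beside it. The 5 melanocyte markers summed to 0.639 to 1.93 CPM in sham, 0.159 to 0.448 CPM at 1 day and 0.850 to 1.47 CPM at 14 days, with Tyr at 0 in sham and at 1 day and Tyrp1 at 0 in sham and at 14 days. Of these 5 only Dct had enough counts to be tested, with means of 1.12, 0.191 and 1.03 CPM in sham, at 1 day and at 14 days. The 7 osteoclast markers summed to 1.75 to 2.47 CPM in sham, 2.74 to 2.91 CPM at 1 day and 6.06 to 13.8 CPM at 14 days, with Calcr at 0 in every group. Ctsk, the highest of them, alone had means of 1.59, 1.94 and 8.71 CPM in that order, and only 2 of the 7 were tested. The part of these cells in the Gpnmb result was not tested.

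**Figure D2:**
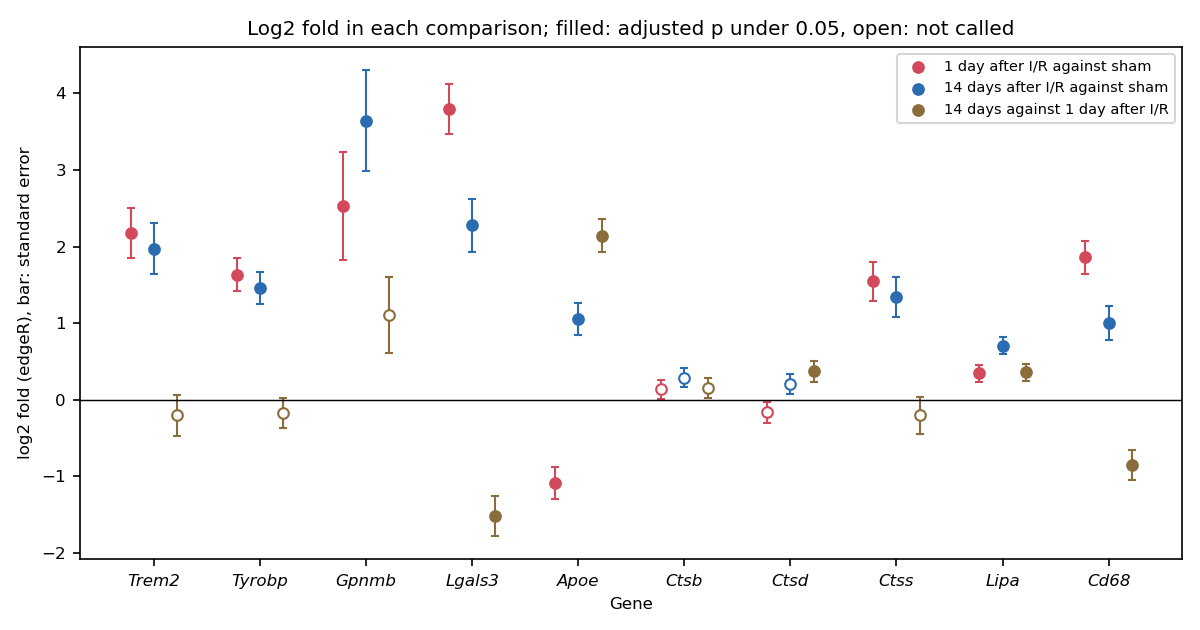
Log2 fold of each gene in the 3 comparisons, from edgeR, with bars for the standard error. Filled points passed at an adjusted p under 0.05 and open points did not. Lgals3 had the largest fold at 1 day (3.79) and Gpnmb at 14 days (3.64), Apoe changed sign between the times, and Ctsb and Ctsd stayed near 0 against sham.

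Of the lysosomal enzymes Ctss and Lipa were higher after I/R at both times, while Ctsb and Ctsd did not pass against sham. Ctss is a cathepsin (a lysosomal protease) made chiefly by macrophages and other antigen-presenting cells. Ctss (ENSMUSG00000038642, chr3:95526786-95556403, plus strand) had 9.38, 8.39 and 8.31 CPM in sham, 24.6, 27.6 and 24.1 CPM at 1 day and 13.0, 22.4 and 31.0 CPM at 14 days. Sham lay below all 6 other libraries, and the 14-day libraries spanned the whole 1-day range. It was 2.92-fold higher at 1 day (log2 fold 1.54, SE 0.26, edgeR adjusted p = 8.64e-04) and 2.54-fold higher at 14 days (log2 fold 1.34, SE 0.26, edgeR adjusted p = 0.0109). The 14-day difference did not pass without sham mouse 2 (edgeR adjusted p = 0.0562). Between both times the log2 fold was -0.20 (SE 0.24, edgeR adjusted p = 0.511), 0.074 without library A, and -0.49 without library C (edgeR adjusted p = 0.0482).

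Lipa codes for lysosomal acid lipase, which frees cholesterol and fatty acids from engulfed lipoproteins. Lipa (ENSMUSG00000024781, chr19:34492318-34527474, minus strand) had 15.7, 14.5 and 15.4 CPM in sham, 20.2, 18.5 and 19.1 CPM at 1 day and 20.9, 24.4 and 28.9 CPM at 14 days. The 3 groups did not overlap, and their means rose in that order from 15.2 ± 0.614 to 19.2 ± 0.871 and 24.8 ± 4.01 CPM (SD, n = 3 each). The difference from sham was 1.27-fold at 1 day (log2 fold 0.34, SE 0.11, edgeR adjusted p = 0.0234) and 1.63-fold at 14 days (log2 fold 0.71, SE 0.11, edgeR adjusted p = 0.00452). From 1 day to 14 days the log2 fold was 0.36 (SE 0.11, edgeR adjusted p = 0.0179), and it was -0.015 with total count only. The 1-day call did not hold with the Wald test of DESeq2 (adjusted p = 0.0568) or without sham mouse 2, sham mouse 3 or mouse 4 (edgeR adjusted p = 0.0931, 0.0559 and 0.108), and the call between both times did not hold without mouse 5 or library C (edgeR adjusted p = 0.0610 and 0.0526).

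Ctsd, an aspartic protease found in the lysosomes of most cells, had the highest level of the 10 genes per kilobase in every group. Ctsd (ENSMUSG00000007891, chr7:142375911-142388038, minus strand) had 409, 412 and 367 CPM in sham, 319, 342 and 399 CPM at 1 day and 440, 448 and 481 CPM at 14 days. The 1-day and sham libraries overlapped, and all 14-day libraries lay above both other groups. Against sham the log2 fold was -0.17 at 1 day (SE 0.13, edgeR adjusted p = 0.315), or 0.29 with total count only, and 0.20 at 14 days (SE 0.13, edgeR adjusted p = 0.333). Between both times it was 0.37 (SE 0.13, edgeR adjusted p = 0.0370), a call that 10 of 18 alternatives (the test against a 2-fold change aside) did not keep, among them total count only (0.0086) and the fits that left out sham mouse 1, sham mouse 2, mouse 4, mouse 5 or library A, B or C (edgeR adjusted p from 0.0506 to 0.129). The gene shares 34.4% of its exonic bases with Gm49369 on the same strand, so its counts are uncertain.

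Ctsb, a cysteine protease that is likewise widespread, passed in none of the 3 comparisons. Ctsb (ENSMUSG00000021939, chr14:63122462-63145923, plus strand) had 174, 167 and 158 CPM in sham, 176, 182 and 192 CPM at 1 day and 171, 212 and 227 CPM at 14 days. The 1-day libraries all lay above sham, by a small margin, and library A lay within the sham range. The log2 fold was 0.14 at 1 day (SE 0.13, edgeR adjusted p = 0.384) and 0.29 at 14 days (SE 0.13, edgeR adjusted p = 0.149). It passed at 1 day with total count only (log2 fold 0.61, edgeR adjusted p = 0.0116) and at 14 days without library A (log2 fold 0.40, edgeR adjusted p = 0.0388). Between both times it was 0.15 (SE 0.13, edgeR adjusted p = 0.329), or -0.21 with total count only. Ctsb shares 12.8% of its exonic bases with Fdft1 on the opposite strand, and its counts are uncertain because the strand setting of the counting is not given in the sources used here.

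The upstream windows of Ctsd and Lipa are shown as examples of lysosomal enzymes whose windows hold a searched motif. The Ctsd window has CACGTG at -245 to -240 and at -98 to -93. The first lies within TCACGTG on the opposite strand and the second on both strands, and no other of the 8 genes with a promoter held either motif. The Lipa window has GAGGAAG at -183 to -177. The stretches are chr7:142387828-142388077 for Ctsd and chr19:34527475-34527724 for Lipa, both on the minus strand.
Ctsd: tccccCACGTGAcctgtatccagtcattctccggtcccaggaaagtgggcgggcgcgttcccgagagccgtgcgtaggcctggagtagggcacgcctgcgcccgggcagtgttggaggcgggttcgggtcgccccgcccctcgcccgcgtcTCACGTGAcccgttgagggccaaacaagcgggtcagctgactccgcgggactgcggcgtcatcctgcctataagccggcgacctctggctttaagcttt
Lipa: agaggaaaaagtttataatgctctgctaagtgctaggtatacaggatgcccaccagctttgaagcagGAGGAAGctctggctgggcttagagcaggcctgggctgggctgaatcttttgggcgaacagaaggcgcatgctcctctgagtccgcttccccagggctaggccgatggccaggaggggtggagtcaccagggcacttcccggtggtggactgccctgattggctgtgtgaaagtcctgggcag

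Cd68, a heavily glycosylated protein of the lysosomal membrane used widely as a macrophage stain, was higher at both times and lower at 14 days than at 1 day. Cd68 (ENSMUSG00000018774, chr11:69664213-69666153, minus strand) had 2.43, 2.73 and 3.13 CPM in sham, 9.82, 11.1 and 8.87 CPM at 1 day and 3.57, 6.16 and 6.79 CPM at 14 days. The groups did not overlap, and library A was close to the highest sham library. It was 3.62-fold higher than sham at 1 day (log2 fold 1.86, SE 0.22, edgeR adjusted p = 8.98e-05) and 2.01-fold higher at 14 days (log2 fold 1.00, SE 0.22, edgeR adjusted p = 0.0150). From 1 day to 14 days it fell 1.81-fold (log2 fold -0.85, SE 0.20, edgeR adjusted p = 0.00438). The 14-day call did not hold without sham mouse 1, sham mouse 2, library B or library C (edgeR adjusted p = 0.0659, 0.0725, 0.0675 and 0.0566). The upstream window of Cd68 is shown because it holds TGAGTCA at 2 places, -149 to -143 and -24 to -18, while in Gpnmb the same letters lie on the opposite strand after the start, at 9 to 15. The stretch is chr11:69666171-69666420 on the minus strand.
Cd68: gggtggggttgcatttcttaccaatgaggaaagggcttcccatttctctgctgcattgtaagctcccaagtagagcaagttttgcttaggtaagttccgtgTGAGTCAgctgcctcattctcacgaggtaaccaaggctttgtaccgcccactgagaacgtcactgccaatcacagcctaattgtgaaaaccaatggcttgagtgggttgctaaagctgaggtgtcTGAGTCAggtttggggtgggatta

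Counting genes whose groups did not overlap gave a similar division. At 1 day 8 genes lay wholly above sham and Apoe wholly below, beside 33.5% and 29.7% of all tested genes. At 14 days 9 lay wholly above, all but Ctsb, beside 21% of all tested genes above and 18.4% below. Between both times Apoe, Ctsd and Lipa lay wholly higher at 14 days and Lgals3 and Cd68 wholly lower, beside 27.3% and 29% of all tested genes. A test against a 2-fold change kept 4 of the 10 genes at 1 day (Trem2, Tyrobp, Lgals3 and Cd68), beside 5.73% of all tested genes. It kept none of the 10 at 14 days, beside 0.276%, and Apoe alone between both times, beside 4.43%. The order of levels per kilobase also moved. Ctsd ranked 1, Tyrobp 4, Ctss 5, Cd68 7 and Gpnmb 10 in every group, Apoe moved from rank 2 in sham to 3 at 1 day and back to 2, and Lgals3 moved from 9 to 6 and then to 8. In sham Lgals3 (0.658 ± 0.0248 CPM per kilobase) and Trem2 (0.702 ± 0.0923) lay within their spread (SD, n = 3), as did Tyrobp (6.98 ± 0.444) and Ctss (6.41 ± 0.440).

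To set the 10 genes against general macrophage genes, each library's log2 CPM of a gene was taken relative to the mean log2 CPM of the 14 macrophage markers. The markers did not move alike. Itgam had a log2 fold of 2.99 (SE 0.26) at 1 day and -2.20 (SE 0.24) between both times, where 5 markers were higher and 2 lower. It shares 68.7% of its exonic bases with Gm49368 on the same strand, so its counts are uncertain. The marker mean itself was 2.87 ± 0.0871 log2 CPM in sham, 3.83 ± 0.145 a day after I/R and 3.77 ± 0.489 in the 14-day group (SD, n = 3). With 3 libraries against 3 a two-sided exact permutation test cannot give a p below 0.1, and over the 30 tests the smallest adjusted p was 0.143, so no difference could pass. At 1 day 6 genes lay wholly higher than in sham relative to the markers: Lgals3 by 2.74, Gpnmb by 1.22, Trem2 by 1.08, Cd68 by 0.85, Tyrobp by 0.64 and Ctss by 0.57 (log2, exact p = 0.1 each), beside 5.64% of all tested genes. Gpnmb in mouse 4 (-3.931) barely cleared the highest sham library (-3.940), and without mouse 6 its difference was 0.54. The other 4, Lipa (-0.63), Ctsb (-0.83), Ctsd (-1.14) and Apoe (-2.05), lay wholly lower (exact p = 0.1 each), beside 78.6% of all tested genes. At 14 days 5 genes lay wholly higher, namely Gpnmb by 2.503, Lgals3 by 1.21, Trem2 by 0.93, Tyrobp by 0.50 and Ctss by 0.36 (exact p = 0.1 each), beside 2.02% of all tested genes. Ctsb (-0.62) and Ctsd (-0.69) lay wholly lower (exact p = 0.1 each), beside 72.2%, while Cd68 (0.03, exact p = 0.8), Apoe (0.10, exact p = 0.3) and Lipa (-0.21, exact p = 0.4) overlapped sham. The Apoe value at 14 days was -0.05 against the median of the markers in place of the mean. Between both times Lgals3 (-1.53) and Cd68 (-0.82) lay wholly lower at 14 days, beside 13.6% of all tested genes, and Apoe (2.15) and Lipa (0.42, or 0.27 without library A) wholly higher, beside 12.2% (exact p = 0.1 each).

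**Figure D3:**
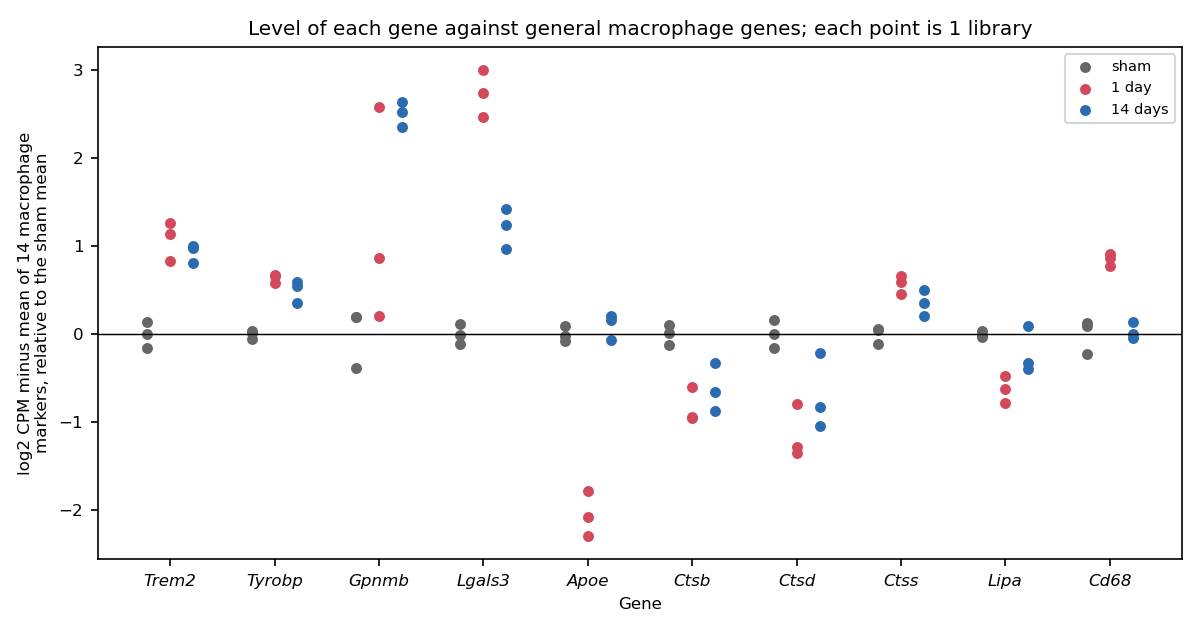
Log2 CPM of each gene minus the mean log2 CPM of 14 macrophage markers in the same library, with the sham mean of each gene set to 0. Each point is 1 library (3 per group). Trem2, Tyrobp, Gpnmb, Lgals3 and Ctss lay above 0 in all 6 libraries after I/R, Ctsb and Ctsd below, and Apoe was lowest at 1 day with a mean difference of -2.05.

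Among pairs of the 10 genes, Trem2 was closest to Tyrobp and to Ctss (Pearson r of 0.99 and 0.98 in log2 CPM over 9 libraries). Lgals3 was closest to Cd68 (0.98), and Apoe to Ctsd (0.87). Apoe and Lgals3 had an r of -0.37 over all libraries but 0.87 after removal of the group means. Trem2 and Gpnmb had 0.77 over all libraries and 0.00 after removal. These values are descriptions, since the 9 libraries fall into 3 groups. Of 11403 other genes with a mean of at least 1 CPM, those most like Trem2 were Asns (0.994), Aebp1 (0.992), Ncam1 (0.992), Apobec1 (0.991), Fam198b (0.990), Vcan (0.989), Eef1a1 (0.989) and Cltc (0.987). Aebp1 was also among the 3 genes most like Tyrobp and Ctss. The gene most like Ctss was Aif1 (0.998), a macrophage marker, and the one most like Lgals3 was Ccr2 (0.992), the receptor of recruited monocytes, which was also the second most like Cd68. Most like Apoe were Crispld2 (0.992), Plxdc2 (0.992) and Fbln1 (0.991), the last an extracellular matrix gene. Most like Ctsd were Mr1 (0.979) and the lysosomal enzymes Tpp1 (0.978) and Manba (0.976).

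Of 11 genes, namely the adaptor Hcst and other receptors of the TREM family or known to pair with Tyrobp, 4 had too few counts to be tested. Another 5 (Trem1, Treml2, Treml4, Sirpb1a and Pilrb1) passed the filter on low counts only through the 1-day libraries, so they had to be higher there, and no count or median of the list is given. Trem1, a receptor of neutrophils and monocytes, went from 0.0492 ± 0.0438 CPM in sham to 1.45 ± 0.326 a day after I/R and was at 0.0545 ± 0.0944 in the 14-day group (SD, n = 3 each). The 2 receptors that other libraries also carried through the filter were Clec5a and Cd300lb. Clec5a, which signals through Tyrobp, was higher at 1 day (log2 fold 2.10, SE 0.22) and at 14 days (0.87, SE 0.23) and lower at 14 days than at 1 day (-1.23, SE 0.20). Cd300lb was likewise higher at both times (2.61, SE 0.29 and 1.08, SE 0.32) and fell between them (-1.53, SE 0.25). Of all tested genes 29.4% were higher at 1 day, 8.75% at 14 days and 25.1% between both times, where 26.8% were lower. Among 14 genes of ITAM signalling, the step below Tyrobp, 11 were higher at 1 day, 2 at 14 days and 1 between both times, where 10 were lower. At 1 day these included Card9 (log2 fold 2.34, SE 0.29) and the exchange factor Vav1 (2.30, SE 0.30), and Syk was among those lower at 14 days than at 1 day (-1.32, SE 0.15). Neutrophils also carry several of these genes. Their 8 markers summed to 1.34 to 4.66 CPM in sham, 19.7 to 69.1 CPM at 1 day and 1.66 to 3.31 CPM at 14 days, with Ly6g at 0 throughout, and their part in these results was not tested. The 14-day counts moved with single libraries. Neither Clec5a nor Cd300lb passed without sham mouse 1, 2 or 3 or library B or C, and only Clec5a did without mouse 4 or 5. Neither passed at 14 days with total count only or limma-voom. The signalling genes were 8 without library A, 4 without mouse 6, 0 without sham mouse 2, and 1 without sham mouse 1 or 3, mouse 4 or 5 or library B or C. Between both times the 1 higher signalling gene became 2 without mouse 6.

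At 1 day the remaining lysosomal genes moved in both directions, as did all tested genes (29.4% higher and 24.8% lower, or 48.6% and 7.48% with total count only). At 14 days the shares over all tested genes were 8.75% and 5.64%, and between both times 25.1% and 26.8% (7.55% and 38.7% with total count only). In the lists that follow Acp5 (a hydrolase), Tfec (a regulator) and Apoc2 (a lipid carrier) passed the filter on low counts only through the 1-day libraries, and the inhibitor Cst6 only through the 14-day libraries. Each had to be higher there, and the counts and medians of the hydrolases, regulators and lipid genes include Acp5, Tfec and Apoc2. Of 9 other tested cathepsins and legumain, 3 were higher and 3 lower at 1 day, with Ctsz (log2 fold 1.44, SE 0.18), Lgmn (1.08, SE 0.14) and Ctsc (0.75, SE 0.20) higher and Ctsf lower (-1.48, SE 0.21). At 14 days 6 were higher and 3 did not pass, led by Ctsk (2.43, SE 0.31), which rose from 1.59 ± 0.432 to 8.71 ± 3.75 CPM (SD, n = 3 each). Of 26 other lysosomal hydrolases 6 were higher and 6 lower at 1 day (10 and 0 with total count only), 7 were higher and 19 did not pass at 14 days, and between both times 14 were higher and 2 lower (2 and 4 with total count only). Smpd1, for acid sphingomyelinase, was lower at 1 day (-0.79, SE 0.12). Of 14 lysosomal membrane proteins and hydrolase helpers 5 were higher and 4 lower at 1 day (7 and 0 with total count only) and 4 were higher and 10 did not pass at 14 days, among them Laptm5 (1.31, SE 0.19 at 1 day) and the cholesterol carrier Npc2 (0.81, SE 0.13 at 14 days). Between both times 6 were higher and 3 lower (0 and 3 with total count only). Of 15 tested proton pump genes 5 were higher and 3 lower at 1 day (10 and 0 with total count only), 2 and 2 at 14 days, and 4 and 4 between both times (0 and 5 with total count only). Of 7 regulators of lysosomal genes 2 were higher and 3 lower at 1 day (2 and 0 with total count only). Of the 2 higher ones only Tfe3 (0.32, SE 0.10) had at least 1 CPM. Tfeb, a master regulator of lysosomal genes, was the 1 gene called at 14 days, where it was lower (-0.71, SE 0.09). Between both times 3 were higher and 2 lower (1 and 2 with total count only). The 3 tested cathepsin inhibitors were Cstb, Cst3 and Cst6, and because of Cst6 no count or median of that list is given. Cstb was higher at 1 day (1.22, SE 0.16) and at 14 days (0.55, SE 0.16), and lower at 14 days than at 1 day (-0.67, SE 0.15). Cst3 was lower at 1 day (-0.47, SE 0.14), though not with total count only, and higher at 14 days than at 1 day (0.71, SE 0.14).

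Median log2 folds at 1 day were -0.03 for the cathepsins, -0.08 for the hydrolases, 0.01 for the membrane proteins, 0.11 for the proton pump and -0.23 for the regulators. With total count only they were 0.44, 0.41, 0.49, 0.59 and 0.23. At 14 days the medians were 0.63, 0.40, 0.18, 0.07 and -0.18. Single libraries moved several of these counts. At 14 days the cathepsins were 2 without sham mouse 2, and the hydrolases were 13 without library A or mouse 6, 3 without sham mouse 1 or 3, 2 without library C and 1 without sham mouse 2 or library B. The membrane proteins were 2 without sham mouse 3, library B or library C and 1 without sham mouse 2. The higher pump genes were 4 without mouse 6 and 1 without any 1 of the sham mice or libraries B and C, and the lower ones were 0 without sham mouse 1 or 2 or library B or C and 1 without sham mouse 3. Cstb did not pass at 14 days when any 1 of the sham mice, mouse 4 or 5 or library B or C was left out, and 1 regulator was higher without library A. At 1 day the higher pump genes were 2 without sham mouse 2 or 3 or mouse 4 or 5 and 3 without library B or C. The higher regulators at 1 day were 0 without sham mouse 2 or mouse 4 and 1 without sham mouse 1 or 3, and the lower hydrolases 3 without mouse 5. Between both times the 2 lower hydrolases became 0 without mouse 4, the 2 lower cathepsins 1 without sham mouse 3, mouse 4 or 5 or library A or B, and the 2 lower regulators 1 without mouse 4 or 5 or library A.

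Genes that take up and export lipid moved in both directions, as did all tested genes. Over all tested genes 29.4% were higher and 24.8% lower at 1 day, 8.75% and 5.64% at 14 days, and 25.1% and 26.8% between both times. With total count only 48.6% were higher at 1 day, and 7.55% higher and 38.7% lower between both times. Of 14 tested lipid genes, Apoc2 among them, 8 were higher and 3 lower at 1 day (median log2 fold 0.55), 4 and 1 at 14 days (0.22), and 4 and 7 between both times (-0.47, with 1 higher and 8 lower with total count only). The scavenger receptor Msr1 was higher at 1 day (3.10, SE 0.19) and at 14 days (1.02, SE 0.20), and Soat1, whose enzyme esterifies cholesterol for storage, likewise (1.46, SE 0.20 and 1.06, SE 0.21). The lipoprotein lipase gene Lpl, which cardiomyocytes also express, was lower at 1 day (-1.22, SE 0.27). Of 11 tested genes also known from lipid-associated macrophages 7 were higher and 1 lower at 1 day (median 0.75), 5 higher and 6 not called at 14 days (0.77), and 3 and 5 between both times (-0.06, or 0.09 without library A). Itgax was higher at 1 day (3.43, SE 0.44) and Igf1 at 14 days (1.32, SE 0.27). This list shares Cd63 and Lpl with those above. Spp1, for osteopontin, had 0.0829 ± 0.0186 CPM in sham, 98.0 ± 11.7 CPM at 1 day and 3.17 ± 1.498 CPM at 14 days (SD, n = 3 each), and was called at both times. It shares 18.8% of its exonic bases with Gm42793 on the same strand and is uncertain. Of the 14 macrophage markers 8 were higher at 1 day (median 0.97, and 13 with total count only), 10 at 14 days (1.00), and between both times 5 were higher and 2 lower (0.23, or -0.16 with total count only, where 0 were higher and 4 lower). At 14 days leaving out 1 library moved the lipid genes to 1 without sham mouse 2 and 2 without sham mouse 3, with 0 lower without any 1 of the sham mice, mouse 5 or library B or C. The lipid-associated macrophage genes were 8 without library A, 3 without sham mouse 3 or library C, 2 without library B and 1 without sham mouse 2, and at 1 day the lower ones were 2 without library A. The macrophage markers were 5 without sham mouse 1 or 3 or library B or C and 2 without sham mouse 2, and between both times the higher ones were 3 without library B or C and 2 without mouse 6.

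**Figure D4:**
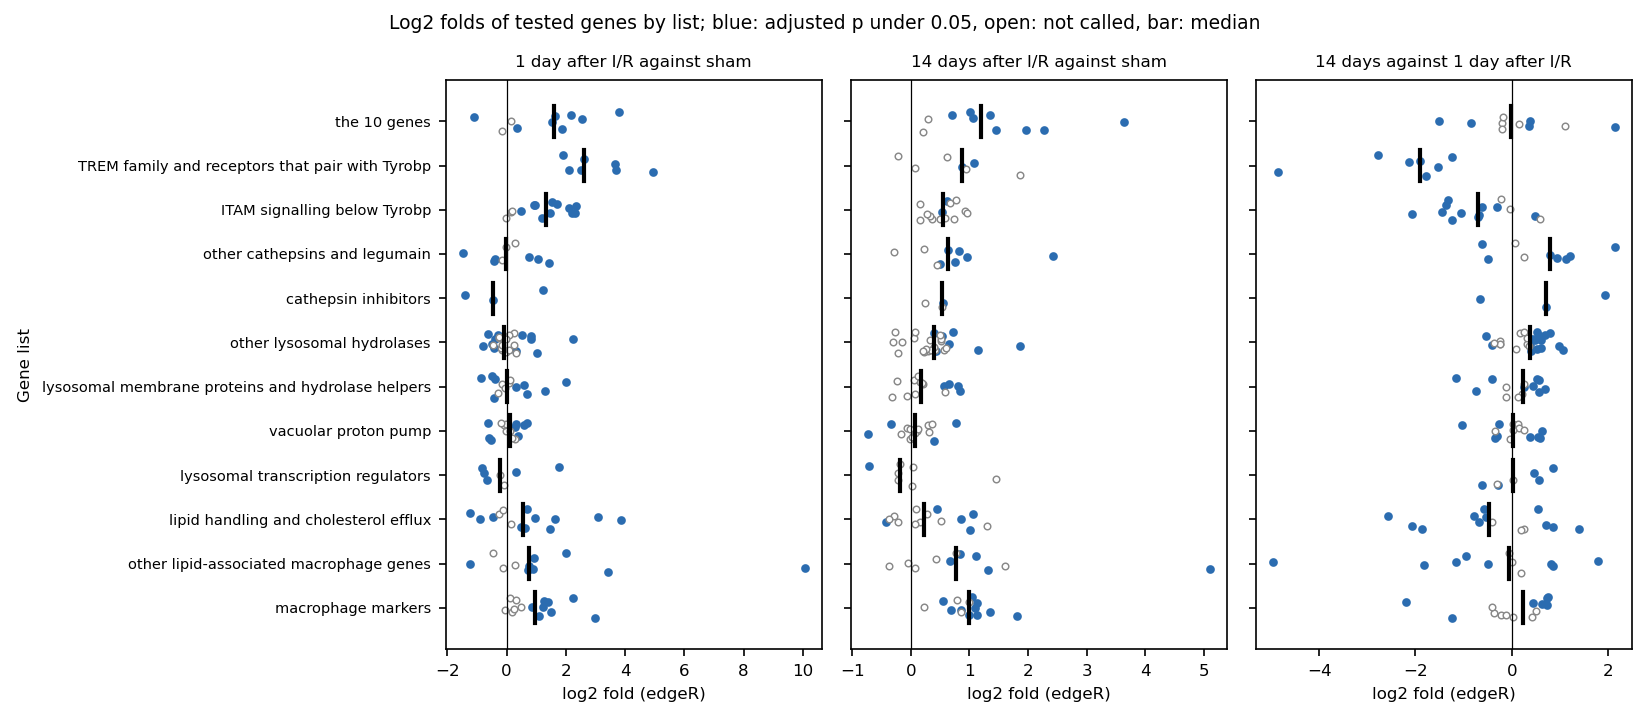
Log2 fold of every tested gene by list in the 3 comparisons, from edgeR. Blue points passed at an adjusted p under 0.05, open points did not, and the bar is the list's median. For the TREM family receptors it rests on 5 of 7 genes tested only through their 1-day libraries. For the 3 cathepsin inhibitors it includes Cst6, tested only through its 14-day libraries. The 10 genes had medians of 1.59, 1.20 and -0.01, while the 26 other lysosomal hydrolases had -0.08 at 1 day (0.41 with total count only) and 0.40 at 14 days.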

How the data were processed

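TRIzol was the extraction reagent and the stranded libraries were made after removal of ribosomal RNA, per the labels' protocols. The submitters' processing notes name STAR 2.7.1a and GRCm38 (mm10). The authors deposited raw whole-number counts for each gene. How reads were assigned to genes (program, annotation, strand, multiple matches) is not given in the sources used here, so overlapping genes are uncertain.

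Symbols, positions and exonic bases came from GENCODE release M21, which held 36429 of the 38293 genes. Counts were tested with edgeR 4.0.16 in R 4.3.3 (trimmed-mean scaling, the default filterByExpr step, robust quasi-likelihood fit, all 9 libraries in 1 fit that shares the estimate of spread), with Benjamini-Hochberg adjustment over all tested genes and a threshold of 0.05. The test was also run on simulated counts with 200 genes changed and the same spread for every gene. That setting is simpler than these data, its outcome is not reported here, and no result rests on it. CPM uses the scaled library size, and log2 CPM adds a prior count of 2. For ratios to macrophage markers the test was an exact permutation, two-sided (scipy 1.17.1). Every pair of replicates differed beyond sampling noise, with a chi-square of 7.21 to 97.2 for each degree of freedom. That does not show whether 2 libraries come from different mice, and each library was taken as 1 replicate. The edgeR p-values set group differences against the spread between libraries, in which mouse and preparation cannot be told apart. At these depths the lowest genes rest on few counts, down to 4 for Gpnmb.

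The 10 genes and all lists were chosen with earlier results of these data known. Of each list the text names up to 4 called genes with the largest absolute log2 fold and at least 1 CPM, and up to 2 in the other direction, in part; some are not reported here. Genes most like a member are ranked by Pearson correlation of log2 CPM, predicted genes left out. Alternatives were DESeq2 1.42.0 (its Wald test, and its size factors in edgeR), total count only, limma-voom 3.58.1, leaving mitochondrially encoded genes out of the scaling, upper-quartile factors, no filter, a filter of 1 CPM in 3 libraries, fits of only the compared groups, testing against a 2-fold change, and each library left out. Figures were drawn with matplotlib 3.10.9.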

Additional observations from a re-analysis of the deposited data

Results flagged for a closer look

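For 5 of the 10 genes the difference from sham was not the same at 1 day and at 14 days, by edgeR's direct test of 14 days against 1 day. Over all tested genes 51.9% passed the same test, so the count of 5 is near that share and does not set these genes apart. The log2 fold between both times was 2.14 for Apoe (edgeR adjusted p = 4.65e-05), -1.51 for Lgals3 (9.82e-04), -0.85 for Cd68 (0.00438), 0.36 for Lipa (0.0179) and 0.37 for Ctsd (0.0370). Apoe was the only gene of the 10 with a difference from sham that passed in opposite directions at the 2 times, lower in 3 of 3 libraries at 1 day and higher in 3 of 3 at 14 days. The values of Lipa and Ctsd were near 0 with total count only (-0.015 and 0.0086). The Ctsd call was lost in 10 of 18 alternatives, and the Lipa call without mouse 5 or library C (edgeR adjusted p = 0.0610 and 0.0526).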

How the results depend on the processing

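No paired analysis was possible because the groups share no replicate numbers. Calls of single genes that changed under an alternative are given with each gene in the report. The counts that changed and the log2 folds that turned sign follow, and the cause was not tested except where fewer libraries or a stricter test enter by construction.

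With total count only, 6860 genes were called higher and 1057 lower at 1 day, 720 and 112 at 14 days, and 1066 higher between both times. Of the 10 genes 0 were then lower at 1 day and 1 was higher between both times, and log2 folds turned sign for Ctsd at 1 day (0.29) and, between both times, for Ctsb (-0.21) and Lipa (-0.015). The test against a 2-fold change left 609 genes higher and 201 lower at 1 day (4 and 0 of the 10), 37 and 2 at 14 days (0 of the 10 higher), and 257 and 369 between both times (1 and 0 of the 10). A fit of the compared groups alone called 1369 genes lower at 14 days.

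Leaving out 1 library at a time gave 314 to 1823 genes higher and 164 to 1469 lower at 14 days, against 1236 and 797 with all 9. The low ends were without sham mouse 2, and the highest count of lower genes was without mouse 6. Of the 10 genes 4 to 9 were higher at 14 days, with 4 without sham mouse 2, and between both times 1 to 4 were higher and 2 to 4 lower. Among all genes 2719 to 4049 were higher and 2885 to 4311 lower between both times, against 3547 and 3788 with all 9. Between both times the log2 fold ranged from -0.43 to 0.066 for Trem2, -0.42 to 0.020 for Tyrobp and -0.49 to 0.074 for Ctss, turning sign without library A. Depth limits Gpnmb, Trem2 and Lgals3 in sham, where they had 4 to 28 counts a library.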
